A study of Canis lupus familiaris with 11 samples.

Results

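The genes NADK, LSM14A, EMC4 and ANKFY1 were followed through poly(A) mRNA-Seq libraries of canine osteosarcoma, a malignant bone tumour. They were chosen by their Ensembl identifiers in the study's list of stably expressed exons and comprised 4 of 24390 gene rows and 53 of 217945 exon bins of the deposited table. An exon bin is the piece of an exon that remains when overlapping transcripts of a gene are flattened. The study had selected a pair of neighbouring exons in each gene for a low coefficient of variation (CV, the standard deviation over the mean) in a set that included these libraries, so that CVs, levels and ratios of the pairs are given as descriptions, with no test. Single bins of the pairs stay among the bins tested below, but their tests are not read as results. The series was designed to find sequences of uniform expression that could serve as normalizers in RT-qPCR.

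The libraries came from 8 osteosarcoma tissues and 3 primary osteosarcoma cell lines, OSCA-30, OSCA-32 and OSCA-40, which differ in breed, sex or age of the donor, with 1 library each. The tissues stemmed from 7 females and 1 male with 8 different breed labels, aged between 4 years 6 months and 12 years 6 months. The study lists the donor of tissue 0320 as mixed. Their labels gave 5 osteoblastic osteosarcomas, 1 osteochondrosarcoma, 1 lung metastasis and 1 tumour labelled unknown, and listed the treatment as CARBO for 2, EUTH at Dx for 2, SOC for 2, AMP for 1 and PALL for 1. The cell lines stemmed from 2 females and 1 male of 3 breeds, aged between 5 years 8 months and 8 years 7 months, with 2 osteoblastic and 1 fibroblastic tumour of origin, and were labelled SOC for 2 and AMP for 1. The study states that donors had not yet received cytotoxic drugs when sampled, and all groups shared a diagnosis of osteosarcoma; no normal bone was among the libraries. For RNA isolation, the study used an RNeasy kit for fibrous tissue (RNeasy Fibrous) in tissues 0320, 0460, 1033 and 1091 and TRIzol in tissues DOS-71, DOS-119, DOS-126 and DOS-127. As the cell lines were extracted with another kit, RNeasy Mini, effects of the kit and of culture cannot be told apart in comparisons with them. By the column headers, the RNeasy Fibrous tissues were sequenced under lane number 6 and the TRIzol tissues under lane number 7, so that kit and lane cannot be told apart either, while the cell lines fell on both (OSCA-30 and OSCA-32 on 6, OSCA-40 on 7). DOS-71 and DOS-126 carry the same index under lane number 7, and a lane number is thus not a single lane of 1 run.

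NADK is the cytosolic NAD kinase, which phosphorylates NAD to NADP and thereby supplies the precursor of NADPH for biosynthesis and defence against oxidants. LSM14A is an RNA-binding protein of P-bodies, cytoplasmic granules in which translationally repressed mRNAs collect. EMC4 is a subunit of the ER membrane protein complex, which inserts transmembrane segments of new proteins into the membrane of the endoplasmic reticulum, and ANKFY1 (Rabankyrin-5) is an effector of the small GTPase RAB5 on early endosomes. These are housekeeping roles that most cells need, in tumours as in normal tissue.

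All 4 genes lie on the minus strand of the dog genome (CanFam3.1, Ensembl release 73). NADK (ENSCAFG00000019219) spans positions 56745869 to 56774759 of chromosome 5 and has 12 bins. LSM14A (ENSCAFG00000007350) spans 118063752 to 118117478 of chromosome 1, also with 12 bins. EMC4 (ENSCAFG00000007959) is short, with 5 bins between 861113 and 865084 of chromosome 30, whereas ANKFY1 (ENSCAFG00000015231) covers 30249726 to 30312969 of chromosome 5 with 24 bins. Bins are numbered by ascending coordinate, so that bin 1 of each of these genes is its 3′-most piece. This direction was checked on 39 other genes of the study's lists in the tissue DOS-126. Its reads thinned toward one end of genes relative to the mean of all libraries. Taken against that mean, the change along the bin numbers was below 0 in 24 of 24 genes of the minus strand. It was above 0 in 15 of 15 genes of the plus strand. The selected pairs were bins 8 and 9 of NADK, 4 and 5 of LSM14A, 2 and 3 of EMC4 and 3 and 4 of ANKFY1. The pair of NADK thus lay toward the 5′ end and that of ANKFY1 close to the 3′ end.

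Libraries held between 3123757 and 24902774 counted reads. DOS-71 and OSCA-32, with 3471461 reads in the latter, were the shallowest, followed by tissue 0320 with 8506457. The deposited values are reads divided by 1 factor per library, and the value of 1 read lay between 0.354 and 3.0. Values of a gene are sums over its bins, and a read that overlaps several bins counts in each of them. Levels are not compared between genes because lengths of the bins were not used here.

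Levels of NADK overlapped between tissues and cell lines. Its gene sum was between 652 (tissue 0320) and 1202 normalised reads (DOS-126) in the tissues, with a median of 1015. It was 957 in OSCA-30, 1256 in OSCA-32 and 855 in OSCA-40. The cell lines thus lay on both sides of the tissue median and the groups overlapped.

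LSM14A varied least of the 4 gene sums in the deposited values, though not under every other scaling tried. The tissues ranged from 852 (DOS-71) to 1300 (DOS-126) with a median of 1139 normalised reads. Values were 1132 in OSCA-30, 1119 in OSCA-32 and 1425 in OSCA-40, so that only OSCA-40 lay above every tissue.

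EMC4 ranged from 546 (DOS-119) to 860 (tissue 0460) over the tissues, with a median of 711 normalised reads. It reached 762 in OSCA-30, 1019 in OSCA-32 and 684 in OSCA-40. Here OSCA-32 was the library above all tissues, while the other cell lines fell within their range.

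ANKFY1 was the member with the widest spread of gene sums. The tissues ranged from 358 (tissue 0460) to 1037 (DOS-71), with a median of 637 normalised reads. The cell lines were closer together, at 897 in OSCA-30, 911 in OSCA-32 and 791 in OSCA-40. All 3 exceeded 7 of the 8 tissues, and DOS-71 alone was higher.

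**Figure D1:**
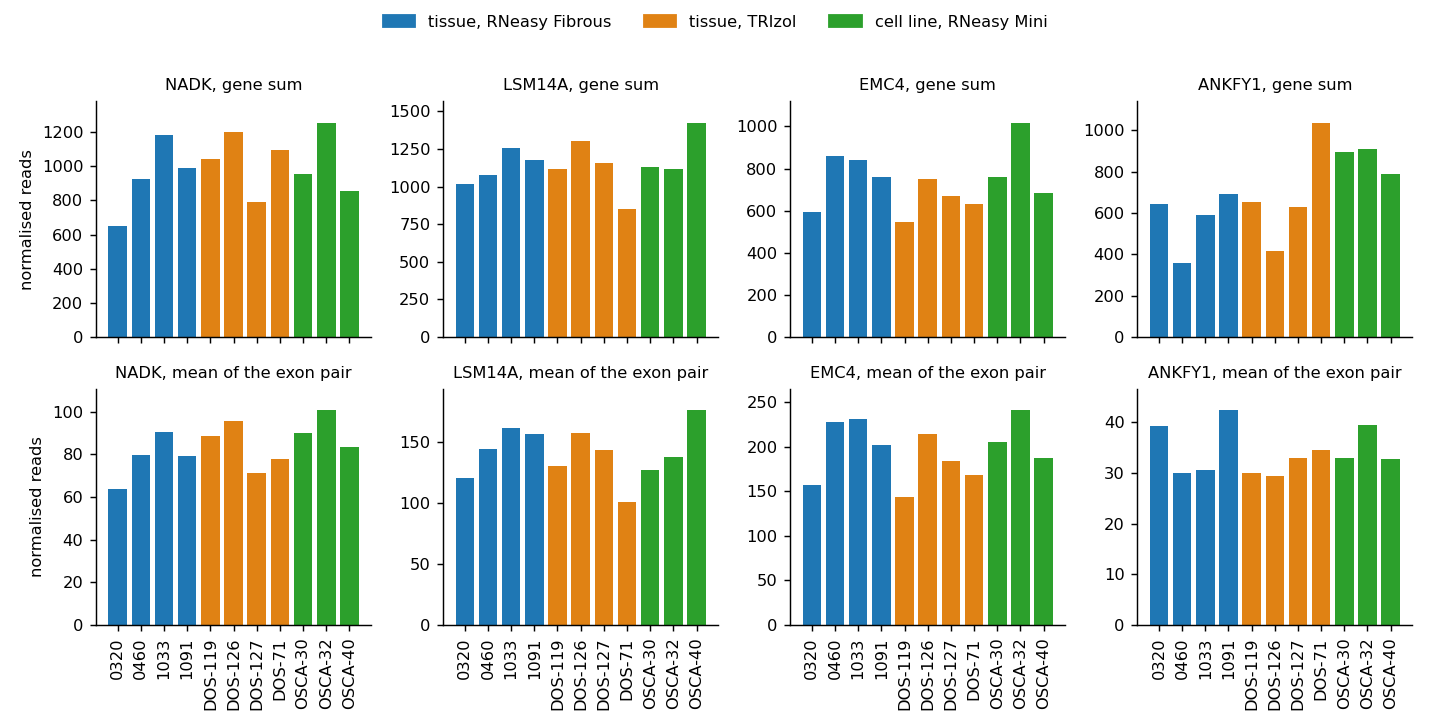
Gene sums (upper row) and means of the selected exon pair (lower row) of NADK, LSM14A, EMC4 and ANKFY1 in normalised reads, 1 bar per library on linear axes from 0, coloured by kind of sample and isolation kit. ANKFY1 gene sums run from 358 to 1037 in the tissues while its exon pair stays between 29.4 and 42.3.

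None of the 4 gene sums passed the test between cell lines and tissues, where 17.0% of the 13858 genes tested did (limma on log2(value + 1), Benjamini-Hochberg adjusted p under 0.05). The genes were listed for stable exons in a set that included these libraries, and their sums hold the selected bins. Small differences and a lack of calls were thus favoured by their choice. The differences of cell lines minus tissues on the log2 scale were 0.06 for NADK (SE 0.26, 95% interval -0.49 to 0.62, adjusted p = 0.895) and 0.13 for LSM14A (SE 0.22, interval -0.35 to 0.61, adjusted p = 0.721). They were 0.21 for EMC4 (SE 0.24, interval -0.31 to 0.74, adjusted p = 0.589) and 0.53 for ANKFY1 (SE 0.31, interval -0.14 to 1.19, adjusted p = 0.262). In no member did the groups separate, whereas in 2.71% of genes all cell lines were higher than every tissue and in 12.8% lower. Of the 2352 genes called, 360 were higher and 1992 lower in the cell lines, and the median difference over all genes was -0.37, so that the 4 genes lay above the typical gene. The split and the median depend on the scaling: with median-of-ratios factors 638 genes were higher and 1473 lower, the median was -0.10, and the differences of the members became 0.33, 0.40, 0.48 and 0.80 in the order above, again with no call (adjusted p between 0.125 and 0.396). Set against the 4 RNeasy Fibrous tissues alone, the differences were 0.14 for NADK, 0.11 for LSM14A, 0.10 for EMC4 and 0.64 for ANKFY1, and against the 4 TRIzol tissues -0.02, 0.15, 0.33 and 0.41, all without a call. With the lane number as a block, chosen after seeing the data, they were 0.07, 0.14, 0.17 and 0.55, also without a call. In bulk samples a smaller share of cells of a type and less RNA per cell cannot be told apart, and marker genes of bone or stroma were not analysed here because the table does not pair its identifiers with symbols.

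Between the isolation methods, and with them the lane numbers, no member passed the test in the 8 tissues. TRIzol minus RNeasy Fibrous was 0.16 for NADK (SE 0.30), -0.04 for LSM14A (SE 0.27), -0.23 for EMC4 (SE 0.28) and 0.23 for ANKFY1 (SE 0.36) on the log2 scale. Adjusted p-values (limma) lay between 0.898 and 0.987. Calls were rare in this comparison, with 1 of 13999 genes or 0.00714%.

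The selected exon pairs were read as the mean of both bins. The NADK pair was between 63.6 and 95.6 normalised reads in the tissues (median 79.4), and 90.2, 101 and 83.4 in OSCA-30, OSCA-32 and OSCA-40. The LSM14A pair was between 100.4 and 161 in the tissues (median 144), and 127, 138 and 176 in the cell lines. Ranges of the groups overlapped in both genes.

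The EMC4 pair ranged from 144 to 232 in the tissues (median 193) and held 206, 241 and 187 in the cell lines. The ANKFY1 pair ranged from 29.4 to 42.3 in the tissues (median 31.8), and reached 33.0, 39.5 and 32.7 in the cell lines. In ANKFY1, DOS-71 no longer stood out with the pair at 34.5, although its gene sum was the highest of all libraries.

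Mean log2 differences of the pairs, cell lines minus tissues, were 0.18 for NADK, 0.08 for LSM14A, 0.16 for EMC4 and 0.07 for ANKFY1. Small differences were favoured by the choice of the pairs. They also depend on the scaling: with median-of-ratios factors, which moved the median of all genes as given above, they were 0.45, 0.35, 0.43 and 0.33 in the same order.

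The CV of each pair over the 11 libraries was 0.129 ± 0.029 (jackknife SE) for NADK, 0.151 ± 0.037 for LSM14A, 0.161 ± 0.030 for EMC4 and 0.131 ± 0.023 for ANKFY1. It was the lowest of the 11 neighbouring pairs of NADK, of the 4 of EMC4 and of the 23 of ANKFY1, and the 2nd lowest of the 10 of LSM14A. Among all 95730 pairs with a mean of at least 10, between 0.0292% (NADK) and 0.154% (EMC4) had a lower CV, and the median CV was 0.531. As the pairs were picked for this property on overlapping libraries, these ranks only describe the choice.

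The gene sums had higher CVs than the pairs, except in LSM14A, a difference that was not tested. The CV of the gene sums was 0.186 ± 0.041 for NADK, 0.131 ± 0.037 for LSM14A, 0.183 ± 0.045 for EMC4 and 0.297 ± 0.064 for ANKFY1. The median over 13858 genes was 0.549, and 10.1% of genes had a lower CV than ANKFY1 against 0.0866% for LSM14A. Low values were favoured here too, as the sums hold the selected bins. In the tissues alone the CV of ANKFY1 was 0.325 for the gene and 0.144 for the pair, and in the cell lines 0.0757 and 0.110. The cell line values rest on 3 libraries only.

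Read numbers limit how finely these CVs can be resolved. The pair of ANKFY1 rested on 23 reads in DOS-71 and 33 in OSCA-32, and at most 185 reads (OSCA-40). Counting error alone would give it a CV of 0.127, whose square is 94.6% of its squared CV. The corresponding share was 37.8% for NADK, 15.2% for LSM14A and 10.4% for EMC4. High shares were favoured, as the pairs were chosen for a low CV on overlapping libraries. The CVs of bins 3, 4 and 5 of ANKFY1, at 0.135, 0.151 and 0.177, were even below the counting CVs of 0.177, 0.182 and 0.206. Counting error here assumes independent reads and covers nothing else.

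**Figure D2:**
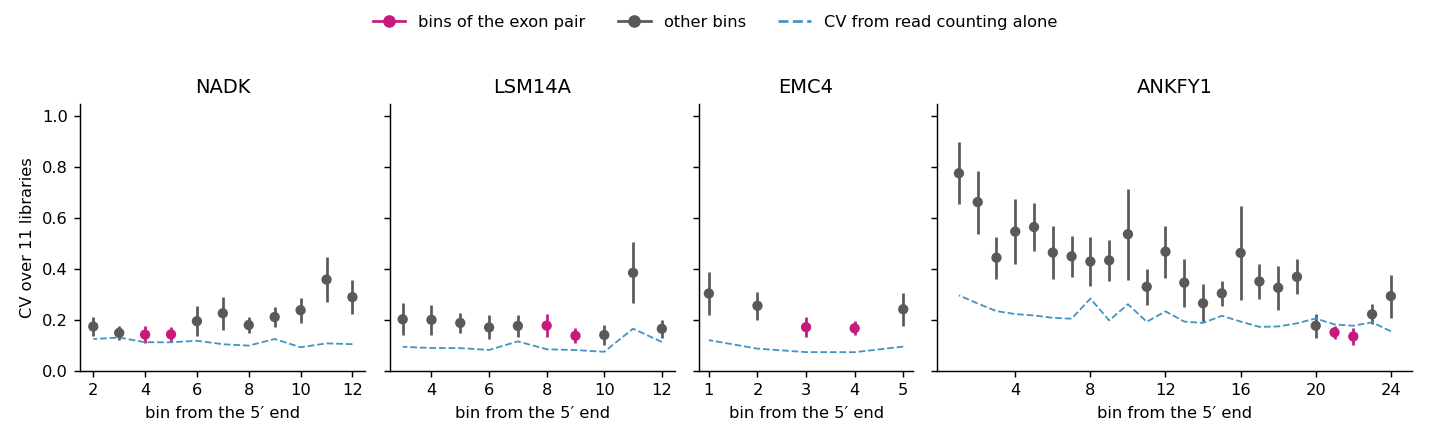
CV over the 11 libraries (points, with jackknife SE as bars) of each bin with a mean of at least 10, counted from the 5′ end of the gene, with the bins of the selected pair in pink and the CV expected from read counting alone as a dashed line. In ANKFY1 the CV falls from 0.776 at the 5′ end to 0.135 within the pair and rises again to 0.294 in the 3′-most bin.

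Along the genes, evenness varied by position. Of the 53 bins, 50 had a mean of at least 10. The other 3 were the 5′-most bin of NADK (mean 1.16) and the 2 5′-most bins of LSM14A (means 2.88 and 0.761), with at most 5 and 11 reads in any library. In NADK, CVs were lowest in bins 8 to 10 (0.143, 0.142 and 0.149) and highest in bins 1 and 2 at the 3′ end (0.289 and 0.359). Bin 2 ranged from 57.1 to 140 normalised reads in the tissues and reached 81.3, 189 and 84.2 in OSCA-30, OSCA-32 and OSCA-40, so that 1 cell line stood above the rest.

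LSM14A was even across most of its length. CVs were between 0.138 and 0.203 in 9 of its 10 passing bins, and 0.385 in bin 2, the thinnest of them with a mean of 38.2. That bin was highest in DOS-126 (73.2) and lowest in DOS-119 (21.6), both tissues isolated with TRIzol. EMC4 had CVs of 0.167 and 0.171 in its pair, against 0.242 in the 3′-most bin and 0.256 and 0.304 in the 5′-most bins 4 and 5. Its 5′-most bin ranged from 39.0 in DOS-71 to 122 in OSCA-32, the shallowest libraries, which marked both ends of the range.

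The CVs of ANKFY1 rose toward its 5′ end. From 0.135 in bin 3 and 0.151 in bin 4 they reached 0.663 in bin 23 and 0.776 in bin 24, the 5′-most piece. Bin 24 held between 3.69 and 13.1 normalised reads in 7 tissues and 45.0 in DOS-71, against 22.9, 40.7 and 21.6 in OSCA-30, OSCA-32 and OSCA-40. In this bin the cell lines thus exceeded all tissues but DOS-71. Bin 3, by contrast, was between 28.9 and 44.0 in the tissues and 34.3, 35.9 and 35.4 in the cell lines. How many of all bins order the libraries as bin 24 does was not counted. Relative to the mean library, the median change toward the 5′ end of other listed genes was also highest in the cell lines, as given below.

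Relative use compares a bin with the sum of the other bins of its gene. Of all 99831 bins tested, 10.4% passed the test between cell lines and tissues, and none of the 50 bins of these genes did (limma, adjusted p at least 0.108). The bins of the selected pairs are among these 50, and the genes were listed for stable exons in overlapping libraries. A lack of calls was thus favoured by their choice. In NADK the log2 differences of its 11 bins lay between -0.19 and 0.19, in LSM14A between -0.42 and 0.25 and in EMC4 between -0.21 and 0.23. All differences in these 3 genes had an unadjusted p above 0.05.

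ANKFY1 had larger differences, ordered along the gene. Relative use was lower in the cell lines for bin 1 by a log2 difference of -0.70 (SE 0.28, adjusted p = 0.111, limma) and higher for bins 20 to 23 by 0.67, 0.61, 0.46 and 0.84 (adjusted p between 0.108 and 0.124, limma). The bins of the pair had -0.48 (bin 3) and -0.50 (bin 4) with SEs of 0.27 and 0.24, and bin 24 had 0.78 (SE 0.36). Of the 24 bins, 5 had an unadjusted p under 0.05 (limma), where 32634 of all 99831 bins did. Without DOS-71, 4 of the 50 bins of these genes passed where 22.4% of all bins did. They were bins 1, 20 and 24 of ANKFY1 with log2 differences of -0.81, 0.75 and 0.95 (limma adjusted p = 0.0369, 0.0496 and 0.0319), and bin 4 of its pair with -0.60. Against the RNeasy Fibrous tissues alone, 5 of the 50 passed where 23.4% of all bins did. They were bins 1, 20 and 23 of ANKFY1 with -0.96, 0.89 and 0.86 (limma adjusted p between 0.0233 and 0.0358), and bins 3 and 4 of its pair with -0.69 and -0.68. As the bins of the pair were chosen on overlapping libraries, their passing is not read as a result. In both settings the members' share lay below that of all bins, which was favoured by the choice of the genes. Against the TRIzol tissues, DOS-71 among them, bins 1, 3, 4, 20 and 23 had -0.45, -0.27, -0.31, 0.45 and 0.81, and none of the 50 passed where 0.137% of all bins did. With the lane number as a block none of the 50 passed where 12.8% of all bins did (limma). The kits gave no call among the members' bins or in the whole table (0.0% of 97018, limma), with 3 of 50 members' bins and 5472 of all bins at an unadjusted p under 0.05.

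Absolute values of bins were also tested one by one. Between cell lines and tissues, 13.8% of all 101533 bins passed, and again none of the 50 did (limma, adjusted p at least 0.104). Here too a lack of calls was favoured by the choice of the genes. In ANKFY1 the log2 differences of its 24 bins ran from -0.13 to 1.34 (bin 23, SE 0.56). Their median was 0.52, where the median over all bins was -0.11. These bins belong to 1 gene in the same libraries and are not separate observations. Like the gene sums, their values depend on the scaling. An unadjusted p under 0.05 (limma) was found in 6 bins of ANKFY1 and in 31815 of all 101533 bins. The differences of the pair were 0.07 (bin 3) and 0.06 (bin 4), where small values were favoured by its choice.

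The pair against the rest of its gene summarises this contrast in 1 value per library. In ANKFY1 the log2 ratio of the pair to all other bins was between -3.79 (DOS-71) and -2.30 (tissue 0460) in the tissues, and -3.63, -3.38 and -3.45 in OSCA-30, OSCA-32 and OSCA-40. The mean log2 difference of cell lines minus tissues was -0.51, and -0.63 without DOS-71. It was -0.72 against the RNeasy Fibrous tissues and -0.30 against the TRIzol tissues.

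In the other genes the ratios spanned narrower ranges over the tissues. Log2 ratios of the pair to the rest ranged from -2.59 to -2.03 for NADK in the tissues and from -2.38 to -2.04 in the cell lines. For LSM14A they ranged from -1.72 to -1.44 and from -1.78 to -1.61, and for EMC4 from 0.16 to 0.41 and from -0.16 to 0.27. Differences between the groups were 0.15, -0.07 and -0.11. The lowest EMC4 value belonged to OSCA-32, in which the bins outside the pair summed to 537 normalised reads against 310 and 350 in the other cell lines.

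To follow the change along the whole gene, a line was fitted to log2(value + 1) of the passing bins from the 3′ to the 5′ end in each library. This measure was added after the bins of ANKFY1 had been seen and restates their pattern, so that it is a description with no test. The slope is the log2 change over the length of the gene in bins. In ANKFY1 it was between -2.45 (DOS-126) and -0.07 (DOS-71) in the tissues, with the other 6 tissues between -2.10 and -0.98, and it was 0.13, -0.21 and -0.44 in OSCA-30, OSCA-32 and OSCA-40. Apart from DOS-71, every tissue lost reads toward the 5′ end more steeply than any cell line.

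The mean slope of ANKFY1 was 1.29 higher in the cell lines (SE 0.46), between 1.14 and 1.49 when any 1 library was left out, with the highest value without DOS-71, and 1.36 with the lane number as a block. Over the 7237 genes with at least 5 passing bins the median difference was 0.02, and 13.7% of genes had a larger one than ANKFY1. These slopes followed ascending bin numbers whatever the strand, so that genes of the plus strand were read in the opposite direction to ANKFY1. As the median and the share mix opposite directions, they cannot show how ANKFY1 compares with other genes. Differences were 0.16 for NADK (SE 0.30), 0.55 for LSM14A (SE 0.33) and 0.31 for EMC4 (SE 0.32). For ANKFY1, TRIzol minus RNeasy Fibrous was 0.68 (SE 0.49).

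Slopes of other genes were read in the same libraries. Over 39 other genes of the study's lists, the median slope toward the 5′ end, relative to the mean of all libraries, was 0.88, 0.73 and 0.88 in OSCA-30, OSCA-32 and OSCA-40. In the tissues it ran from -0.95 (DOS-126) to 0.27 (DOS-119), and DOS-71 was at 0.10. Relative to the mean library, these genes and ANKFY1 thus both had their highest slopes in the cell lines, except that DOS-71 exceeded OSCA-32 and OSCA-40 in ANKFY1. The part of this general gradient in the slope of ANKFY1 was not tested. RNA quality of the samples was not used here.

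**Figure D3:**
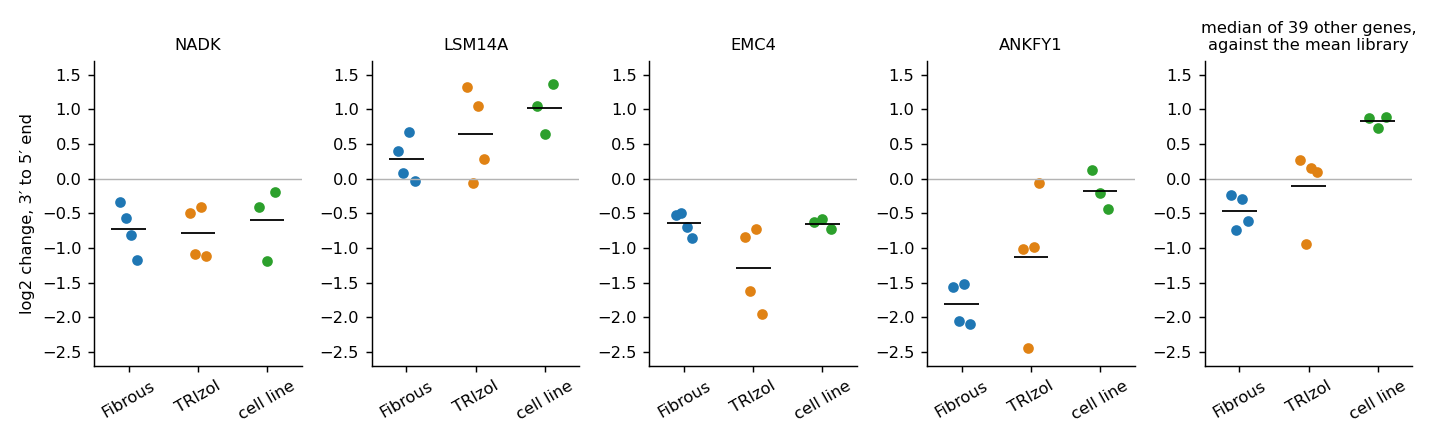
Slope of log2(value + 1) from the 3′ to the 5′ end of each gene, 1 point per library with the mean of each kit or of the cell lines as a line, and on the right the median slope of 39 other genes relative to the mean library. The cell lines lie at -0.44 to 0.13 for ANKFY1, above every tissue but DOS-71, and at 0.73 to 0.88 for the other genes, above every tissue.

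Slopes of the other members differed in kind. The slope of NADK was below 0 in all 11 libraries, between -1.19 and -0.19, with OSCA-32 the steepest and OSCA-40 the flattest. That of EMC4 was also below 0 in all 11 libraries, most steeply in DOS-71 (-1.95) and DOS-126 (-1.62). That of LSM14A was above 0 in 9 of 11 libraries, up to 1.37 in OSCA-40, and at -0.03 in tissue 1091 and -0.06 in DOS-126.

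A normalizer is read against other sequences of the same sample, and such ratios do not depend on the factor of a library. The standard deviation of the log2 ratio between 2 exon pairs over the libraries was 0.21 ± 0.09 (jackknife SE) for NADK and EMC4, 0.23 ± 0.04 for LSM14A and EMC4, and 0.25 ± 0.03 for NADK and LSM14A. Ratios with ANKFY1 were wider, at 0.30 ± 0.07 with NADK, 0.30 ± 0.05 with EMC4 and 0.31 ± 0.05 with LSM14A. For comparison, the median over all neighbouring pairs was between 0.79 and 0.81 against each member. As the member pairs were chosen for low CV on overlapping libraries, narrow ratios among them only describe the choice.

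Gene sums gave wider ratios throughout, a contrast that was favoured by the choice of the pairs and not tested. The standard deviations were 0.27 to 0.33 among NADK, LSM14A and EMC4, and 0.53, 0.55 and 0.56 for ANKFY1 with NADK, LSM14A and EMC4. The increase was largest in the ratios with ANKFY1. Within the tissues, the exon pairs of ANKFY1 had 0.35 with NADK, 0.33 with LSM14A and 0.35 with EMC4, and the gene sums 0.57, 0.60 and 0.63.

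**Figure D4:**
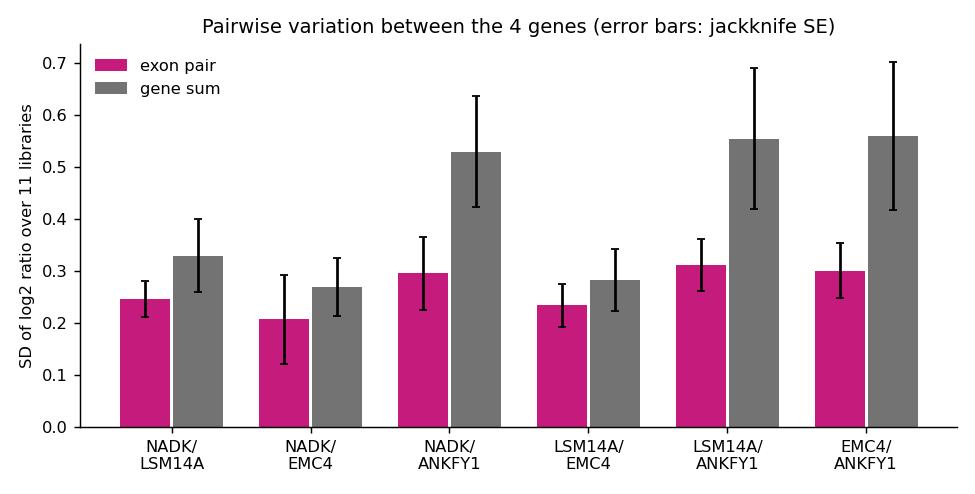
Standard deviation over 11 libraries of the log2 ratio between 2 of the 4 genes, from exon pairs (pink) and gene sums (grey), with jackknife SE as error bars and an axis from 0. Ratios of exon pairs lie between 0.21 and 0.31, and ratios of gene sums that involve ANKFY1 between 0.53 and 0.56.

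With the exon pairs of HNRNPL and THOC5, a splicing regulator and a subunit of the mRNA export complex THO from the same list, the members behaved differently. Against the HNRNPL pair the standard deviation was 0.22 for NADK, 0.26 for LSM14A, 0.25 for EMC4 and 0.26 for ANKFY1. Against the THOC5 pair it was 0.36, 0.41, 0.35 and 0.24, so that ANKFY1 was the member closest to THOC5. With gene sums it was 0.49, 0.48, 0.44 and 0.78, and ANKFY1 was then the member farthest from THOC5.

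Ratios between gene sums of members were compared between cell lines and tissues in 6 exact permutation tests, 2-sided over the 165 ways to pick 3 of 11 libraries. Their p-values were at least 0.218, without adjustment, where 0.00606 is the smallest possible. Small differences were favoured here too, as the genes were listed for stable exons in overlapping libraries. The gene sum of NADK over that of ANKFY1 had the largest log2 difference, -0.47 (exact permutation p = 0.218): it ranged from 0.02 to 1.53 in the tissues and from 0.09 to 0.46 in the cell lines. From the exon pairs the same ratio differed by 0.12, with 0.68 to 1.67 in the tissues and 1.32 to 1.42 in the cell lines.

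Among the 44 other genes that could be paired with a symbol through the study's lists, likeness was taken as the standard deviation of the log2 ratio of gene sums over the 11 libraries, smaller being more alike. NADK was closest to HNRNPR, DYNLRB1 and RAC1 (0.22 to 0.23), LSM14A to CRKL (0.21), DCAF7 (0.24) and ZNF326 (0.25), and EMC4 to GET4 (0.20), DCAF7 (0.22) and CCZ1 (0.22). ANKFY1 was closest to JAK1, at 0.23, and stood at 0.45 with HNRNPR. All these genes come from lists picked for stable exons in overlapping libraries.

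Of genes with related roles on the same lists, 8 were read beside the members: GET4 and SRP68, which deliver proteins to the endoplasmic reticulum, HGS, RABEP2, CCZ1, AP2B1 and TBC1D14 of endosomes and membrane traffic, and TIAL1, which binds mRNA. Between cell lines and tissues 0 rose and 1 fell by the test over all genes, a share close to the 14.4% of all genes that fell, and their median log2 difference was -0.19 against -0.37 over all genes. The gene that fell was RABEP2, a rabaptin of the endosomal system, with a log2 difference of -0.98 (SE 0.27, limma adjusted p = 0.0271). HGS, which sorts ubiquitinated cargo on endosomes, had -0.65 (SE 0.25, limma adjusted p = 0.0944). The remaining 6 lay between -0.41 (TIAL1) and 0.14 (CCZ1).

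Reads per bin were fewest in ANKFY1. Across the passing bins of ANKFY1, reads ran from 5 to 132 per bin and library, compared with 20 to 350 for NADK, 10 to 526 for LSM14A and 13 to 553 for EMC4. DOS-71 was the library with the fewest reads in 34 of the 50 bins, and no passing bin was without reads in any library. The 5′-most bin of ANKFY1 had a median of 15 reads, so that single reads weigh on its value, most of all in DOS-71 where 1 read adds 3.0 normalised reads.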

How the data were processed

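Reads of 8 tissues and 3 cell lines were aligned by the authors with TopHat to the dog genome, restricted to uniquely mapped reads and counted per exon bin of Ensembl release 73 by means of DEXSeq scripts. The submitters' notes also name CASAVA 1.8.2, Cufflinks and SAMtools. The authors deposited a normalized signal, the counts divided by 1 factor per library whose derivation is not given in the sources used here. All values (100.0%) were whole multiples of 1 step within 0.01 reads, which gave the reads per bin. Depth was between 3123757 and 24902774 reads.

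Gene sums, relative bin use and bin values were compared with limma 3.58.1 (trend) on log2(value + 1) over all features with a mean of at least 10, with Benjamini-Hochberg adjustment at 0.05. edgeR 4.0.16 and DESeq2 1.42.0 on recovered reads were alternatives. Differences are on the log2(value + 1) scale and understate changes of low values. Ratios of gene sums were compared with exact permutation tests (Python 3.11.15, numpy 2.4.6, pandas 2.3.3). The tests designed for the exon pairs are not printed, as the pairs were chosen on these libraries, and slopes have limma SEs only. CVs have jackknife SEs over libraries. Figures were drawn with matplotlib 3.10.9. Scripts were tested on simulated data.

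Members and lists were chosen with earlier results of these data known. The genes named were the members, the partners HNRNPL and THOC5, 3 genes most like each member, and 8 listed genes of related role. 1 further gene of these lists is not reported here. Of 24580 identifiers, 0 matched a symbol in RefSeq and 50 through the study's lists, so that the planned marker and pathway lists were not analysed here. Exon numbers of the list were read as bin numbers, with counting from the other end as an alternative. Libraries come from separate tumours or cultures, and p-values measure the spread between these libraries.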

Additional observations from a re-analysis of the deposited data

Results flagged for a closer look

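For the 8 tissues, 78 values (gene sums, exon pairs, ratios, slopes and passing bins) were each checked for a tissue far from the rest by Dixon's criterion, and 6 met it, where chance alone picks about 1 in 20 groups. All 6 were ANKFY1 bins in DOS-71, the shallowest library, and all were high. The values there were 78.0 normalised reads in bin 9, 45.0 in bin 14, 45.0 in bin 15, 57.0 in bin 16, 39.0 in bin 23 and 45.0 in bin 24. The bins belong to 1 gene in 1 library, so that they are not 6 separate observations. The reads behind bin 24 in DOS-71 were 15 at 3.0 normalised reads each. The part of counting error in these values was not tested.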

How the results depend on the processing

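No paired analysis was made, because by the breeds, ages and tumour sites that the study lists no cell line came from the donor of a tissue. Choices added after seeing the data were the slopes, the settings without both shallow libraries (DOS-71 and OSCA-32) and the lane number as a block, which changed no call among the members. The cause of the shifts below was not tested. No member's gene sum was called under any scaling, tool, filter or omission, while NADK (log2 difference 0.06) changed sign to -0.018 against TRIzol tissues and -0.071 without both shallow libraries. Genes called numbered 1012 against RNeasy Fibrous tissues, 1204 against TRIzol tissues, 1495 without both, and 1529 to 2315 with 1 library left out (1529 without OSCA-32). edgeR called 1790 and DESeq2 3068. Between kits, 0 genes were called with a pseudocount of 0.5, without the filter or by edgeR, 139 by DESeq2, and 0 to 1 with 1 library left out. LSM14A was then 0.13 with equal totals.

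Bins called in relative use numbered 6623 at a mean of at least 50, 23060 against RNeasy Fibrous tissues, 138 against TRIzol tissues, and 2442 (without OSCA-32) to 22260 (without DOS-71) with 1 library left out. Between kits that range was 0 to 3. LSM14A bin 5 became 0.030 against TRIzol tissues. With the lane block 2315 genes and 12754 bins were called.

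Pair differences were 0.45 for NADK, 0.35 for LSM14A, 0.43 for EMC4 and 0.33 for ANKFY1 with median-of-ratios factors, and 0.36 for NADK with equal totals. With exons numbered from the other end, they were -0.028 for NADK and 1.04 for ANKFY1, and pair against rest -0.11 for NADK, 0.21 for LSM14A, 0.12 for EMC4 and 0.58 for ANKFY1. The ANKFY1 pair was -0.0071 against RNeasy Fibrous tissues and -0.013 without both shallow libraries. Without both, EMC4 pair against rest was 0.017, and LSM14A over EMC4 was 0.11 from sums and 0.018 from pairs.

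Leaving out 1 library at a time gave these ranges of differences that changed sign. Gene sums ranged from -0.097 to 0.18 for NADK, and between kits from -0.0054 to 0.28 for NADK and -0.12 to 0.079 for LSM14A. Relative use of LSM14A bin 4 ranged from -0.16 to 0.0012, and the NADK slope from -0.045 to 0.45. Pairs ranged from -0.058 to 0.17 for LSM14A and -0.020 to 0.11 for ANKFY1. Pair against rest ranged from -0.19 to 0.022 for EMC4. NADK over LSM14A ranged from -0.29 to 0.16 (sums) and -0.0047 to 0.30 (pairs), and NADK over EMC4 from -0.013 to 0.10 (pairs). LSM14A over EMC4 ranged from -0.31 to 0.15 (sums) and -0.30 to 0.059 (pairs), and LSM14A over ANKFY1 from -0.17 to 0.14 (pairs).

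CVs depended on scaling. With median-of-ratios factors, pairs had 0.189 (NADK), 0.191 (LSM14A), 0.197 (EMC4) and 0.176 (ANKFY1), sums 0.188 (LSM14A), 0.232 (EMC4) and 0.364 (ANKFY1), and the median bin of LSM14A 0.244. With equal totals, pairs had 0.213, 0.252, 0.226 and 0.185, sums 0.239, 0.243, 0.258 and 0.368, and median bins 0.246 (NADK), 0.294 (LSM14A) and 0.311 (EMC4). Numbered from the other end, pairs had 0.188, 0.190, 0.202 and 0.493. The median bin of EMC4 was 0.173 without both shallow libraries. Ratios of gene sums in place of pairs had standard deviations of 0.33 (NADK and LSM14A), 0.53 (NADK and ANKFY1), 0.28 (LSM14A and EMC4), 0.55 (LSM14A and ANKFY1) and 0.56 (EMC4 and ANKFY1). Depth limits ANKFY1 most, whose pair rested on 23 reads in DOS-71.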
